A study of Mus musculus with 6 samples.

Results

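The genes described are 10 genes of nucleic acid sensing that act upstream of the transcription factor IRF3, chosen by name: the RNA receptors Ddx58, Ifih1 and Dhx58, the endosomal receptor Tlr3, the DNA sensor Mb21d1 (named Cgas in the annotation used), Zbp1, the adaptors Mavs and Tmem173, and the kinases Tbk1 and Ikbke. They are 10 names set against 20894 gene rows in the deposited table, and 8 of the 10 have a row there. They and the lists below were chosen with earlier results of these data known, so their counts of called genes are descriptions. Liver RNA was sequenced from Irf3LSL-2D mice, whose allele, known as IRF3-2D, encodes a constitutively active IRF3 once Cre removes a stop cassette. The IRF3-2D group (3 samples) had received AAV8-TBG-Cre and the Ctrl group (3 samples) AAV8-TBG-GFP, both adeno-associated viruses whose TBG promoter is active in hepatocytes. Both groups carried the allele and both were given ethanol intraperitoneally at 3 g/kg, 2 h before the liver was collected. No group carried Cre without the allele, so what Cre or GFP do by themselves and what active IRF3 does cannot be told apart. The labels state no age, sex or pooling of the mice, nor whether the 3 samples of a group are separate mice, so a p-value reflects only how these samples vary, which may be technical.

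Cells detect viral nucleic acid, or their own when it is out of place, with receptors in the cytosol and in endosomes. RIG-I (Ddx58) and MDA5 (Ifih1) bind double-stranded RNA and signal through MAVS on mitochondria, LGP2 (Dhx58) modulates them, cGAS binds DNA and signals through STING (Tmem173), and TLR3 binds double-stranded RNA in endosomes and signals through TRIF (Ticam1). These routes meet at the kinases TBK1 and IKKepsilon (Ikbke), which phosphorylate IRF3, and several of the receptor genes are themselves known as interferon-stimulated genes.

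Depth was 12054096 to 13606973 counts per library in IRF3-2D and 13940893 to 14830629 in Ctrl, and the values are estimated counts per gene. Irf3 itself, which checks the labels, stood at 120 ± 15.3 CPM in IRF3-2D liver and 49.8 ± 9.35 CPM in Ctrl liver (SD, n = 3 each; CPM, library-scaled counts with TMM composition factors), 2.41-fold higher (log2 fold change 1.27, SE 0.16, edgeR adjusted p = 0.0015). The hepatocyte marker Alb was at 50833 ± 4016 CPM in IRF3-2D liver and was 2.33-fold lower than in Ctrl liver. Ttr, a hepatocyte marker named after its values were seen, went the other way. It stood at 10630 ± 1411 CPM in IRF3-2D and 5939 ± 730 CPM in Ctrl liver, 1.79-fold higher (edgeR adjusted p = 0.0045). Markers of Kupffer, endothelial and stellate cells were read too. Listed at or near 0 were also genes used by every cell, such as Hsp90b1 (0 to 2 counts) and Dhx15 (0 to 1 count), so a listed value may not cover all of a gene's transcripts, and how far this touches the members was not tested.

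Of the 8 members with a row, Ddx58 was listed at 0 in all 6 libraries and 7 were tested, while Dhx58 and Mb21d1 are not analysed here. In IRF3-2D liver the receptors Ifih1 and Tlr3, the sensor Zbp1 and the kinase Tbk1 were higher, and Mavs, Tmem173 and Ikbke did not pass the test. That is 4 of 7 called higher and 0 called lower by edgeR's quasi-likelihood test at an adjusted p under 0.05, where 13.2% of all 10802 tested genes were called higher and 13.1% lower. At an unadjusted p under 0.05 edgeR had 1 of the 7 lower, which is Mavs, and 18.6% of all tested genes lower. DESeq2 called 4 of the 7 higher and 1 lower, against 13.8% and 16% of all tested genes, and limma-voom called 4 higher and 0 lower, against 13.2% and 13.3%. The median log2 fold change of the 7 was 0.61, against 0.03 over all tested genes. Each tested member had at least 15 counts in every library, so none passed the filter on low counts through 1 group alone. In all 4 called genes every IRF3-2D library stood above every Ctrl library, as it did in 23.7% of all tested genes.

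Sequences at the starts of these genes are shown for 3 called members, for the uncalled Mavs and for Ddx58, which has no value in the table. RefSeq's table for GRCm38.p6 gave a window of 250 bases before to 50 after the annotated start for 7 of the members (Ddx58, Ifih1, Mavs, Mb21d1, Tlr3, Tbk1 and Ikbke). Both strands were searched for the core of the interferon-stimulated response element, GAAA, any 2 bases and GAAA again, and for the shorter IRF element AANNGAAA, which lies within the first. The core was in the windows of 2 of the 7, Ifih1 and Ddx58, and in 3.44% of all 32851 windows of the same length. The shorter element was in 4 of the 7 (Tlr3 and Ikbke as well) and in 23.9% of all windows. In Ifih1 the core begins 33 bases after the start, in Ddx58 it begins 3 bases after the start on the opposite strand, and in Tlr3 the shorter element ends 52 bases before the start, also on the opposite strand. These distances are from RefSeq's start, and for Tlr3 that start lies inside the gene as GENCODE M21 bounds it, whose end is at 45411080, so the site is upstream only of the RefSeq start. A match of letters is a description and not a bound site. Capitals mark the matches in 6 stretches, which are Ifih1 after its start (chr2:62646206-62646235, minus strand), Ddx58 after its start (chr4:40239796-40239825, minus strand), and the 250 bases before the start of Ifih1 (chr2:62646256-62646505, minus strand), Tlr3 (chr8:45410381-45410630, minus strand), Tbk1 (chr10:121586795-121587044, minus strand) and Mavs (chr2:131233813-131234062, plus strand).
Ifih1, after the start: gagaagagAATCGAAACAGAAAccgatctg
Ddx58, after the start: agTTTCGATTTCctatggccagccggctag
Ifih1, before the start: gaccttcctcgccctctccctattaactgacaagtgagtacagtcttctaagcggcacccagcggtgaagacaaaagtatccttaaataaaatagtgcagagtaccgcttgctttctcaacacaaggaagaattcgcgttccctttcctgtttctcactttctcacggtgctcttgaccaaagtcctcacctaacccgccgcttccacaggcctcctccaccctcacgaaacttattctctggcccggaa
Tlr3, before the start: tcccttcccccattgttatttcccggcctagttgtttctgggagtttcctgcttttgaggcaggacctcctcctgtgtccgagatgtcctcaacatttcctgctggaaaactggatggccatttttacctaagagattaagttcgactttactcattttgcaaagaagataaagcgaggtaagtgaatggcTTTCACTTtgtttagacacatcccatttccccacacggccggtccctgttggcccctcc
Tbk1, before the start: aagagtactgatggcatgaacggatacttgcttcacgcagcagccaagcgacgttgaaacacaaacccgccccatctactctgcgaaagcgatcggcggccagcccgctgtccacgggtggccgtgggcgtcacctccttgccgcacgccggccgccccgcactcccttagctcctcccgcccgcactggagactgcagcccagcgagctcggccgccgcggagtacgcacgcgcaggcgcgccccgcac
Mavs, before the start: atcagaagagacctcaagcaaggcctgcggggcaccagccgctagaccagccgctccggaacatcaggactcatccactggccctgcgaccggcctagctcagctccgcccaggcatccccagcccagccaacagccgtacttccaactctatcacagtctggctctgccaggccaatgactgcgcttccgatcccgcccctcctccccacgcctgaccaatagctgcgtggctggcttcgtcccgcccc

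The RIG-I-like receptor genes come first. Ifih1 (ENSMUSG00000026896, chromosome 2, 62595798 to 62646255, minus strand, GENCODE M21 on GRCm38), the MDA5 gene, had 3355, 3527 and 3244 counts in the IRF3-2D libraries and 85, 158 and 281 in the Ctrl libraries. The lowest IRF3-2D library lies far above the highest Ctrl library, and the Ctrl libraries differ more among themselves than the IRF3-2D libraries do. Its level was 223 ± 14.1 CPM in IRF3-2D and 14.1 ± 7.54 CPM in Ctrl liver (SD, n = 3 each). It was 15.8-fold higher (log2 fold change 3.98, SE 0.38, edgeR adjusted p = 0.00054), which places it as rise number 57 among all tested genes. Ddx58 (ENSMUSG00000040296, chromosome 4, 40203773 to 40239828, minus strand), the RIG-I gene, was listed at 0 counts in each of the 6 libraries, so the table gives no value for it in either group. Ddx58 has 10 annotated transcripts, 2 of them protein-coding. The antiviral sensor gene Oas2 was listed at 0 to 2 counts beside related genes with many counts, so a listed 0 is not read as absence here.

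The gene of the endosomal RNA receptor was higher too. Tlr3 (ENSMUSG00000031639, chromosome 8, 45395665 to 45411080, minus strand) had 288, 196 and 222 counts in IRF3-2D and 89, 90 and 71 in Ctrl libraries. The groups do not overlap. At 15.5 ± 2.8 CPM in IRF3-2D and 6.8 ± 1.09 CPM in Ctrl liver (SD, n = 3 each), it was 2.28-fold higher (log2 fold change 1.19, SE 0.20, edgeR adjusted p = 0.006). An antisense gene overlaps Tlr3. The libraries were strand-specific per the labels' protocols, but no source states the strand setting of the counting. Reads of the pair may therefore not be told apart, and the same holds for Ikbke, which antisense genes overlap.

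Zbp1, which binds Z-form nucleic acid and can start necroptosis, an inflammatory cell death, came next to Ifih1 in fold change among the tested members. Zbp1 (ENSMUSG00000027514, chromosome 2, 173206612 to 173218923, minus strand) had 552, 540 and 441 counts in IRF3-2D libraries and 25, 46 and 42 in Ctrl libraries. All IRF3-2D libraries stood above all Ctrl libraries. Its level was 33.7 ± 4.2 CPM in IRF3-2D and 3.06 ± 0.933 CPM in Ctrl liver (SD, n = 3 each), 11.0-fold higher (log2 fold change 3.46, SE 0.24, edgeR adjusted p = 0.00013). Of the 4 called members Zbp1 had the smallest p.

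The adaptor genes were not called. Mavs (ENSMUSG00000037523, chromosome 2, 131234063 to 131248025, plus strand), the adaptor of RIG-I and MDA5, had 541, 436 and 415 counts in IRF3-2D libraries and 420, 606 and 586 in Ctrl libraries. On the scaled level this is 30.6 ± 4.0 CPM in IRF3-2D and 43.7 ± 8.53 CPM in Ctrl liver (SD, n = 3 each), with the lowest Ctrl library inside the range of the IRF3-2D libraries. Its log2 fold change stood at -0.51 (SE 0.17, edgeR adjusted p = 0.059), and the side of the threshold depended on the setting. It was called lower with RLE factors (adjusted p = 0.048), upper-quartile factors (adjusted p = 0.047) and DESeq2 (adjusted p = 0.022). It was also called lower with a mean count of at least 50 (adjusted p = 0.046) and without Ctrl replicate 1 (log2 fold change -0.66, adjusted p = 0.016). With library totals alone it was at -0.05, where the median of all tested genes was 0.49. Tmem173 (ENSMUSG00000024349), the STING gene, was read at low depth, with 36, 51 and 48 counts in IRF3-2D and 19, 68 and 15 in Ctrl libraries. The Ctrl libraries alone span more than all 3 IRF3-2D libraries. Its log2 fold change stood at 0.08 (SE 0.62, edgeR adjusted p = 0.94), and without single libraries it lay between -0.29 and 1.12, below 0 without IRF3-2D replicate 2, Ctrl replicate 1 or Ctrl replicate 3. A difference was not detectable at this depth and spread.

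Of the kinase genes, Tbk1 was called higher and Ikbke was not called. Tbk1 (ENSMUSG00000020115, chromosome 10, 121546455 to 121586787, minus strand), whose product is the kinase that phosphorylates IRF3 below most of these receptors, had 1015, 1018 and 903 counts in IRF3-2D and 552, 476 and 535 in Ctrl libraries. The groups do not overlap, and the spread within each was small. Its level was 64.6 ± 4.97 CPM in IRF3-2D and 42.3 ± 2.56 CPM in Ctrl liver (SD, n = 3 each), 1.53-fold higher (log2 fold change 0.61, SE 0.09, edgeR adjusted p = 0.0033). Ikbke (ENSMUSG00000042349, chromosome 1, 131254343 to 131279606, minus strand), which encodes the related kinase IKKepsilon, had 350, 392 and 364 counts in IRF3-2D and 316, 269 and 356 in Ctrl libraries. Its scaled levels of 24.4 ± 2.0 CPM in IRF3-2D and 25.4 ± 2.62 CPM in Ctrl liver overlap (SD, n = 3 each), and the log2 fold change stood at -0.06 (SE 0.12, edgeR adjusted p = 0.73). With library totals alone Ikbke turned to 0.39 (adjusted p = 0.056) and Tbk1 to 1.07 (adjusted p = 0.00059), beside an all-gene median of 0.49.

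**Figure D1:**
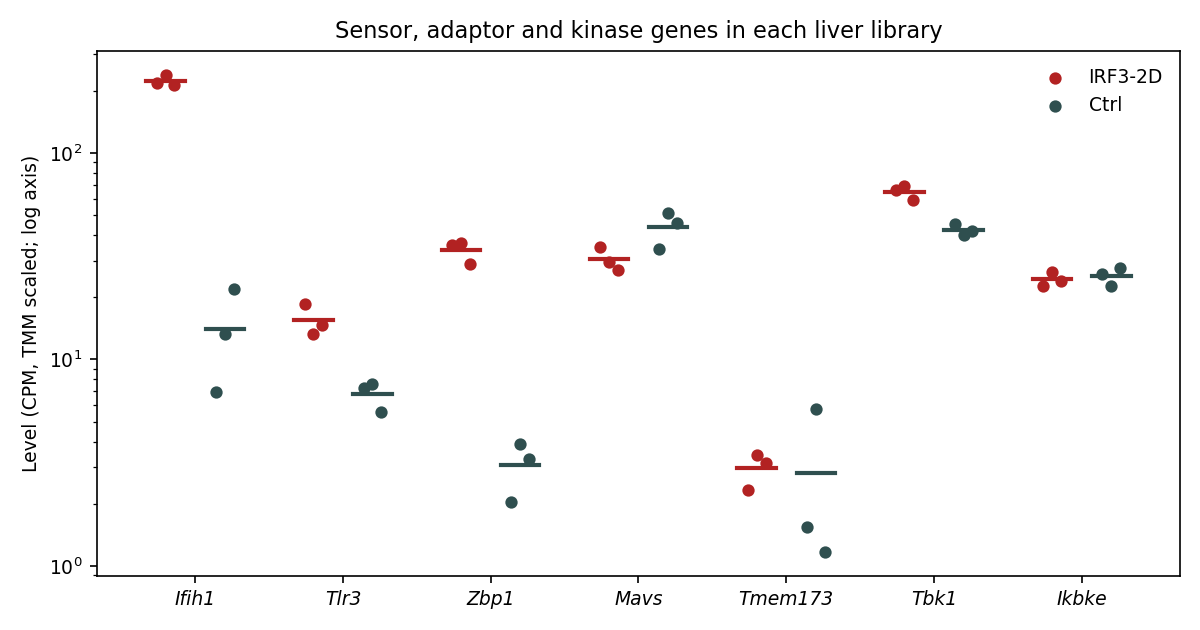
Level of each tested member in each library, in CPM with TMM scaling on a log axis, with IRF3-2D libraries (red) left of Ctrl libraries (dark) and a line at each group's mean (n = 3 each). Ifih1, Tlr3, Zbp1 and Tbk1 show no overlap between the groups, while Mavs, Tmem173 and Ikbke overlap.

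Scaling moved all fold changes by a similar amount. Without a composition factor, library totals alone placed the median of all tested genes at 0.49 on the log2 scale, and 41.7% of all tested genes were then called higher and 5.29% lower. Against that median, Ifih1 stood at 3.95, Zbp1 at 3.43, Tlr3 at 1.15 and Tbk1 at 0.58 on the log2 scale, and Mavs stood at -0.54. The same 4 members were called higher there, and in each of the 6 fits that left out 1 library the number of members called higher was 4.

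**Figure D2:**
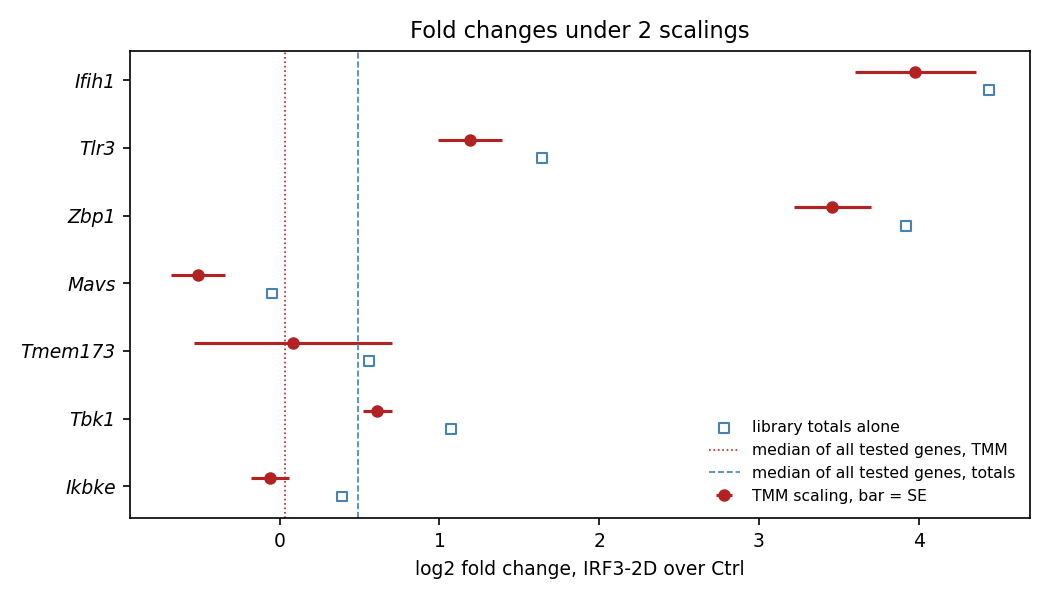
Log2 fold change, IRF3-2D over Ctrl, of each tested member with TMM scaling (red points, bars are SE) and with library totals alone (blue squares), with dotted and dashed lines at the median of all tested genes under each scaling. The 4 called members lie right of the median under both scalings, and Mavs lies left of it under both.

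Ratios of partner genes within a library do not depend on the scaling. The ratio of Ifih1 to Mavs counts was 6.2, 8.09 and 7.82 in IRF3-2D and 0.202, 0.261 and 0.48 in Ctrl libraries, so the receptor had more counts than its adaptor in every IRF3-2D library and fewer in every Ctrl library. Counts are not divided by length, so the ratio does not say which transcript was more abundant. The ratio of Tbk1 to Mavs was 2.13 ± 0.233 in IRF3-2D and 1.0 ± 0.276 in Ctrl libraries (SD, n = 3 each). Ikbke over Tbk1 was 0.378 ± 0.0298 in IRF3-2D and 0.601 ± 0.0559 in Ctrl libraries (SD, n = 3 each), lower in all 3 IRF3-2D libraries. Tlr3 over Ticam1, the gene of its adaptor TRIF, was 0.509 ± 0.082 in IRF3-2D and 0.282 ± 0.0693 in Ctrl libraries (SD, n = 3 each). Each of the 4 ratios gave p = 0.1 in a two-sided exact permutation test, also after Benjamini-Hochberg adjustment over the 4, and 0.1 is the smallest p that 3 against 3 samples allow.

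**Figure D3:**
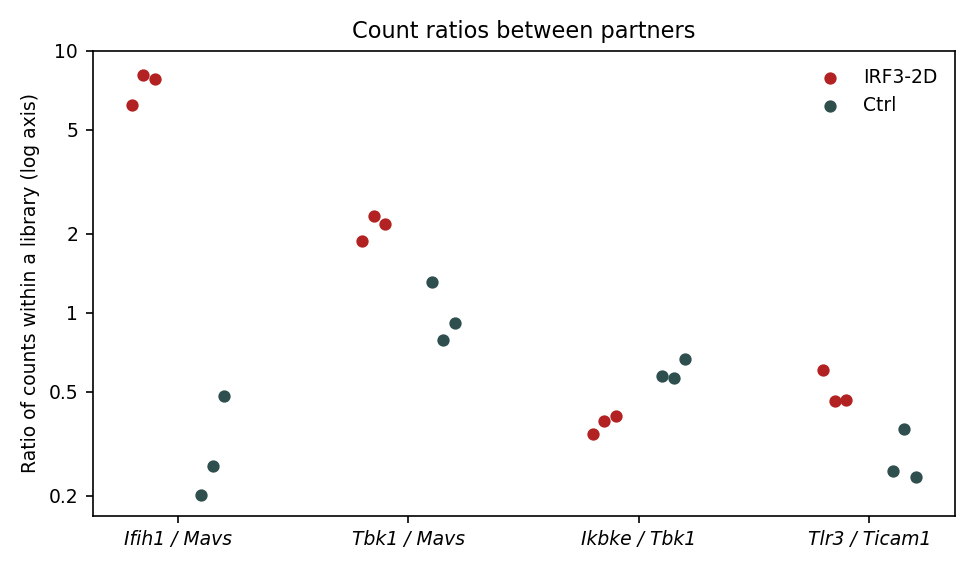
Ratio of the counts of a pair of genes within each library, on a log axis, with IRF3-2D libraries (red) left of Ctrl libraries (dark). None of the 4 ratios overlaps between the groups, and Ikbke over Tbk1 is the one that is lower in IRF3-2D.

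To compare members with each other, levels were divided by the length of the longest protein-coding transcript, which gives CPM per kilobase. In IRF3-2D liver Ifih1 stood highest at 40.7 ± 2.58 CPM per kilobase, followed by Tbk1 at 21.4 ± 1.64, Zbp1 at 17.0 ± 2.11, Mavs at 8.9 to 11.4 in its libraries, Ikbke at 7.49 ± 0.616, Tlr3 at 3.51 ± 0.634 and Tmem173 at 1.29 ± 0.253 CPM per kilobase (SD, n = 3 each). In Ctrl liver the order was Mavs at 14.3 ± 2.79 and Tbk1 at 14.0 ± 0.848 CPM per kilobase, then Ikbke at 7.82 ± 0.806, Ifih1 at 2.57 ± 1.38, Zbp1 at 1.54 ± 0.469, Tlr3 at 1.54 ± 0.248 and Tmem173 at 1.22 ± 1.1 CPM per kilobase (SD, n = 3 each). Neighbours in the IRF3-2D order did not overlap, while in Ctrl liver Mavs and Tbk1 overlapped, and so did the 4 lowest genes. Ifih1 was thus rank 1 in IRF3-2D and rank 4 in Ctrl liver. The order rests on the transcript length chosen, since with the shortest protein-coding transcript Tbk1 was highest in both groups, at 146 ± 11.3 in IRF3-2D and 95.7 ± 5.8 CPM per kilobase in Ctrl liver (SD, n = 3 each).

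Since Ifih1 was the only tested RIG-I-like receptor, the genes closest to its profile were sought over the 6 libraries, by the root mean square difference of centred log2 CPM. They were Phactr2 (difference 0.398), Rtp4 (0.422), Ly6a (0.427), Cyp2a22 (0.443) and Serpina5 (0.469), all on the log2 scale. Their rises were 16.7-fold for Phactr2, 12.7-fold for Rtp4, an interferon-induced gene, 16.8-fold for Ly6a, 18.9-fold for Cyp2a22 and 13.2-fold for Serpina5. In the Ctrl libraries Serpina5 stood at 0.0817 to 0.252 CPM, where 3 counts correspond to 0.234 to 0.252 CPM, and Cyp2a22 at 0.421 to 0.703 CPM. Both passed the filter on low counts through the IRF3-2D libraries alone, so they had to differ and their folds are uncertain. The 6 libraries fall into 2 groups, so genes with a group difference of like size come first. Ly6a and Cyp2a22 belong to multigene families, so how their reads were placed is uncertain.

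Of 11 tested regulators of the RIG-I-like receptors 2 were called higher, 1 lower and 8 neither, close to the 13.2% and 13.1% of all tested genes, and the median log2 fold change was -0.03 against 0.03 over all genes. Zc3hav1, which encodes the antiviral zinc-finger protein ZAP, reached 344 ± 12.9 CPM in IRF3-2D, against 70.6 ± 3.55 CPM in Ctrl liver (SD, n = 3 each), 4.88-fold with adjusted p = 1.5e-05 by edgeR. Rnf135, the gene of the ubiquitin ligase Riplet that activates RIG-I, had 362, 317 and 287 counts in IRF3-2D and 111, 83 and 85 in Ctrl libraries, 2.81-fold higher. Rnf125, a ubiquitin ligase known to limit RIG-I and MDA5, fell by 0.60 on the log2 scale, a call lost with library totals alone (log2 fold change -0.15). Under that scaling 7 of the 11 were called higher and 0 lower, against 41.7% and 5.29% of all tested genes. Trim25, another ligase of RIG-I, was at -0.03 (SE 0.15) and was named after its values were seen. With DESeq2, 3 were called lower, and 2 without IRF3-2D replicate 2 or 3.

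Of 14 tested regulators of the cGAS and STING route 4 were called higher and 3 lower, against 13.2% and 13.1% of all tested genes. The median log2 fold change was 0.19, against 0.03 over all tested genes. Trex1, which encodes a nuclease that degrades cytosolic DNA, had 166, 183 and 202 counts in IRF3-2D and 33, 33 and 25 in Ctrl libraries, 4.89-fold higher, but 97.6% of its 31-base words occur in transcripts of another gene, so its counts are uncertain. Samhd1, a nucleotide hydrolase, was 1.71-fold higher. Enpp1, which hydrolyses the cGAS product cGAMP outside cells, had 135, 178 and 124 counts in IRF3-2D and 350, 274 and 389 in Ctrl libraries and was 2.84-fold lower (edgeR adjusted p = 0.0018). Slc19a1, a carrier known in human cells to import cyclic dinucleotides, fell by 1.27 on the log2 scale and was named after its values were seen, like G3bp1 and Ifi204. Surf4, a cargo receptor of the endoplasmic reticulum, fell by 0.44 on the log2 scale, and turned to 0.01 with library totals alone. Under that scaling 8 of the list were called higher and 2 lower, against 41.7% and 5.29% of all tested genes. The count of 4 called higher became 2 without IRF3-2D replicate 1 or 2, without Ctrl replicate 2 or 3 and with the replicate block. In the 6 fits that leave out a library, G3bp1 (1.22-fold, 12.3% of words shared) kept its call only without Ctrl replicate 1. It stood at 0.24 to 0.32 on the log2 scale in the others. Ifi204 (2.12-fold, 34.0% of words shared) kept its call only without IRF3-2D replicate 3 and stood at 0.73 to 1.15 in the others.

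In the endosomal Toll-like receptor pathway 1 of 9 tested genes was called higher and 1 lower, near the shares of all tested genes, with a median log2 fold change of 0.30. Unc93b1, the chaperone that carries TLR3, TLR7 and TLR9 to endosomes, had 1502, 1362 and 1323 counts in IRF3-2D and 438, 412 and 424 in Ctrl libraries, 2.67-fold higher with adjusted p = 6.4e-05 by edgeR. Irak1, a kinase below MyD88, fell by 0.68 on the log2 scale, a call lost with library totals alone (log2 fold change -0.22). Under that scaling 8 of the 9 were called higher and 0 lower, against 41.7% and 5.29% of all tested genes. Ticam1 was at 0.30 (SE 0.14, adjusted p = 0.15 by edgeR) and was called higher without Ctrl replicate 1 (0.45). Tlr8, Tlr13 and Cd14, named after their values were seen, were not called (adjusted p = 0.14, 0.067 and 0.09 by edgeR), but all 3 were called higher without IRF3-2D replicate 3, at log2 fold changes of 1.40, 1.55 and 1.21. The list then held 4 called higher, against 2 without Ctrl replicate 1 and 3 with DESeq2. The summed level of 12 Kupffer cell and macrophage markers was 924 CPM in IRF3-2D replicate 3. It was 1255 and 1223 CPM in the other IRF3-2D libraries and 514 to 612 CPM in Ctrl libraries. Of these sums the marker Mpeg1 alone gave 561, 554 and 439 CPM in IRF3-2D replicates 1, 2 and 3. In Ctrl libraries Mpeg1 gave 163, 110 and 103 CPM. In bulk tissue, fewer cells of a type and less RNA per cell cannot be told apart.

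The marker counts that follow stand beside 13.2% of all tested genes called higher and 13.1% lower, or 41.7% and 5.29% with library totals alone. Markers of Kupffer cells and macrophages numbered 11 tested, of which 4 were called higher, 0 lower and 7 neither. Mpeg1, a pore-forming protein of macrophages, was 4.14-fold higher, and 2 to 7 of these markers were called higher when single libraries were left out. The count was 7 without IRF3-2D replicate 3 and 2 without IRF3-2D replicate 1 or 2 or Ctrl replicate 2 or 3, and it was 8 with library totals alone. Cd68 was listed at 0 to 2 counts, and Adgre1 stood at -0.56 (SE 0.44) on the log2 scale, not called and named after its values were seen. The summed monocyte and dendritic cell markers were 7.14 to 24.4 CPM in IRF3-2D and 3.28 to 8.01 CPM in Ctrl libraries, and 1 of 4 tested was called higher. That call, Ly6c2 (23.7% of words shared), passed the filter on low counts through IRF3-2D libraries only. The list had 0 called higher without IRF3-2D replicate 2, with limma-voom, under the replicate block and at a mean count of at least 50. T and NK cell markers summed to 8.65 to 12.6 CPM in IRF3-2D and 2.52 to 3.76 CPM in Ctrl libraries, with Cd3g listed at 0 in all libraries and 1 of 2 tested called higher. The called gene was Ccl5, a chemokine gene that also responds to interferon, and without it the sums overlapped, at 2.2 to 4.47 CPM in IRF3-2D and 1.68 to 2.61 CPM in Ctrl libraries (an alternative chosen after seeing the data). Sinusoidal endothelial markers summed to 316 to 409 CPM in IRF3-2D and 488 to 505 CPM in Ctrl libraries, and 5 of 9 tested were called lower, 2 or 3 without any 1 library and 0 with library totals alone. Hepatocyte markers summed to 75377 to 88207 CPM in IRF3-2D and 139652 to 186912 CPM in Ctrl libraries, with 5 of 7 tested called lower and 1 higher, and 3 lower with library totals alone. Stellate cell markers summed to 113 to 141 CPM in IRF3-2D and 122 to 168 CPM in Ctrl libraries, with 1 of 5 tested called lower and Pdgfrb at 0. Cholangiocyte markers summed to 13.4 to 22.3 CPM in IRF3-2D and 16.0 to 35.1 CPM in Ctrl libraries. B cell markers summed to 1.63 to 2.91 CPM in IRF3-2D and 1.02 to 3.43 CPM in Ctrl libraries, and neutrophil markers to 1.49 to 3.79 CPM in IRF3-2D and 0.589 to 3.91 CPM in Ctrl libraries. What these marker levels contribute to the changes of Ifih1, Zbp1, Tlr3 and Tbk1 was not tested.

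Of 10 tested scaffold genes of TBK1 and IKKepsilon 3 were called higher and 0 lower, against 13.2% and 13.1% of all tested genes. The median log2 fold change was 0.14, against 0.03 over all tested genes. Ikbkg, the NEMO gene, was 1.69-fold higher (adjusted p = 0.0015 by edgeR), and Optn, which encodes the adaptor optineurin that binds TBK1, was 1.30-fold higher. The call of Optn was lost without IRF3-2D replicate 1 (log2 fold change 0.35). Sike1, named for suppressing IKKepsilon, had 20, 20 and 24 counts in IRF3-2D libraries and was listed at 0 in each Ctrl library, so it was at least 5.77-fold higher against a floor of 3 counts in each Ctrl library. Sike1 passed the filter on low counts through the IRF3-2D libraries alone, so it had to differ and its call adds no support to the count, which is 2 higher without it. Sike1 has 6 annotated transcripts, and the listed 0 may leave some of them out. With library totals alone 7 of the 10 were called higher, against 41.7% of all tested genes.

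The necroptosis partners of ZBP1 had all tested genes called: of 5 tested genes 4 were called higher and 1 lower, against 13.2% and 13.1% of all tested genes. Their median log2 fold change was 0.55. Mlkl, which encodes the executor of necroptosis, had 403, 341 and 216 counts in IRF3-2D and 82, 81 and 77 in Ctrl libraries, 3.24-fold higher with adjusted p = 0.0029 by edgeR. Cflar, an inhibitor of caspase-8, fell by 0.52 on the log2 scale, a call lost with library totals alone (log2 fold change -0.07). The other calls were fragile. Casp8 (1.96-fold) lost its call without IRF3-2D replicate 1 (log2 fold change 0.76), Ctrl replicate 1 (0.81) or Ctrl replicate 3 (0.93). Fadd (1.34-fold) lost it without any 1 library (0.36 to 0.48), and Ripk1 (1.46-fold, named after its values were seen) without any 1 library other than Ctrl replicate 1 (0.50 to 0.58). The number called higher was therefore 1 without IRF3-2D replicate 1 or Ctrl replicate 3, and 2 without any other library. It was also 1 with the replicate block, and 2 with DESeq2, RLE factors or no filter on low counts. Ripk3, the kinase that joins ZBP1 to MLKL, was listed at 0 to 11 counts and was not tested.

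Other sensors of foreign nucleic acid were called higher in 6 of 14 tested genes and lower in 0, against 13.2% and 13.1% of all tested genes. Their median log2 fold change was 0.31. Oas1a, a synthase of the second messenger that activates RNase L, had 609, 542 and 517 counts in IRF3-2D and 59, 52 and 68 in Ctrl libraries, 7.56-fold higher, though other genes hold 68.8% of its words. Ddx60, a helicase linked to RIG-I signalling, had 109, 109 and 111 counts in IRF3-2D and 16, 7 and 0 in Ctrl libraries, and its call (adjusted p = 0.021 by edgeR) was lost without any 1 IRF3-2D library or without Ctrl replicate 2 (log2 fold change 3.46 to 3.52). Its counts reached the filter's level in 3 IRF3-2D libraries and in 1 Ctrl library. Oas3 was 3.90-fold higher, a call lost without IRF3-2D replicate 1 (log2 fold change 1.89) or 2 (1.66). Ddx21, an RNA helicase, was 1.41-fold higher. The number called higher was 2 without IRF3-2D replicate 1 or 2 and 3 without Ctrl replicate 2.

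Among genes that clear or edit nucleic acid, 3 of 9 tested were called higher and 1 lower, against 13.2% and 13.1% of all tested genes. Their median log2 fold change was 0.35. Rnaset2a and Rnaset2b, near-identical genes of a lysosomal ribonuclease that share 86.1% and 63.1% of their words with other genes, were summed. Both are among the 3 called higher and enter the median, so those calls are not separate. Together they had 26943, 23078 and 23656 counts in IRF3-2D libraries and 1188, 995 and 1313 in Ctrl libraries, a 17.1-fold higher mean level. Adar, which edits double-stranded RNA so that MDA5 does not read it as foreign, had 634, 649 and 542 counts in IRF3-2D and 182, 253 and 203 in Ctrl libraries, 2.32-fold higher with adjusted p = 0.002 by edgeR. Rnaseh2a, a subunit of a nuclease that removes RNA from DNA, fell by 0.77 on the log2 scale, and other genes hold 15.1% of its words. Its call was lost without any 1 library (log2 fold change -0.57 to -0.93) and with library totals alone (-0.32). Without Ctrl replicate 1 the list held 5 called higher.

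Below the kinases, 3 of 6 transcription factor genes were called higher and 0 lower, against 13.2% and 13.1% of all tested genes. Their median log2 fold change was 0.94. Irf7, which amplifies interferon production, had 467, 566 and 582 counts in IRF3-2D and 147, 131 and 126 in Ctrl libraries, 3.24-fold higher, and Irf1 was 2.00-fold higher. The third was Irf3 itself, the gene whose allele Cre switches on by design. Its call adds no support to the count, and the list's median includes it. Of 19 type I and III interferon genes 18 were listed at 0 in all libraries. Ifnk had 3, 2 and 0 counts in IRF3-2D libraries and 0 in Ctrl libraries. As for Ddx58, a listed 0 is not read as absence of these transcripts.

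**Figure D4:**
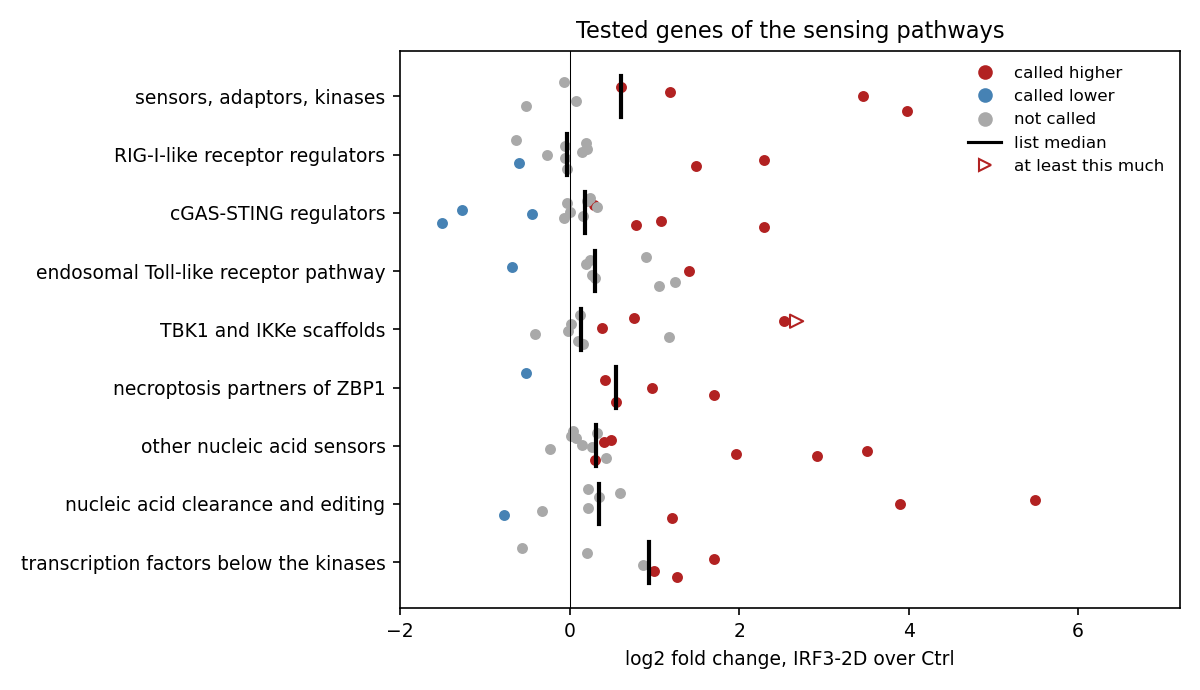
Log2 fold change, IRF3-2D over Ctrl, of every tested gene of the sensing lists, coloured by its call at an adjusted p under 0.05, with a bar at each list's median. Sike1 is drawn at its lower bound with an open arrow. The medians lie between -0.03 and 0.94, against 0.03 for all tested genes, and the list with the highest median includes Irf3 itself. Some lists hold genes far to the right, while Enpp1 (-1.50) and Slc19a1 (-1.27) of the cGAS and STING list lie farthest left.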

How the data were processed

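Liver polyA RNA of 3 IRF3-2D and 3 Ctrl samples was sequenced from strand-specific libraries, per the labels' protocols. The deposited table holds estimated counts per gene, all whole numbers. Per the submitters' processing notes, Salmon 1.2.1 was among the tools, with GRCm38 and mm10 listed as builds and no role for either. Transcript annotation and strand setting: not given in the sources used here.

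Of 20894 rows, 77 have no symbol and 5285 are at 0 in all libraries. Estimated counts were tested with edgeR 4.0.16 in R 4.3.3 (quasi-likelihood F test, TMM factors, filterByExpr, Benjamini-Hochberg adjustment over all 10802 tested genes, threshold 0.05). TMM factors were 1.12 to 1.23 in IRF3-2D and 0.822 to 0.879 in Ctrl libraries. The test was checked on simulated data that gave every gene the same dispersion. The check therefore does not cover genes or groups that vary unequally. Alternatives were DESeq2 1.42.0, limma-voom (limma 3.58.1), RLE and upper-quartile factors, library totals alone, no filter, a mean count of at least 50, the replicate number as a block, and leaving out each library. A floor of 3 counts covers counting error only.

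Coordinates and transcript lengths came from GENCODE M21, and a gene's shared words are its 31-base stretches found in transcripts of other genes too. Symbols matched 8 of 10 members to rows.

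The members and lists were chosen with earlier results of these data known. Their counts beside the shares of all tested genes are therefore descriptions and not tests. Beside the members and Irf3, up to 4 called genes of each pathway list with the smallest adjusted p are named, marker genes by level and adjusted p, and the 5 genes closest in profile to Ifih1. Genes named otherwise are marked as chosen after their values were seen, as are Hsp90b1, Dhx15, Oas2, Ripk3, Cd68 and Cd3g, given for low counts.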

Additional observations from a re-analysis of the deposited data

How the results depend on the processing

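Ifih1, Tlr3, Zbp1 and Tbk1 were called higher under all alternatives run. Mavs was called lower with DESeq2 (log2 fold change -0.54), RLE factors (-0.54), upper-quartile factors (-0.53) and a mean count of at least 50 (-0.52), each giving 1 member called lower. Leaving out single libraries gave 0 to 1 members called lower and Mavs at -0.66 to -0.39. Ikbke turned to 0.39 with library totals alone and lay at -0.14 to 0.00 without single libraries. Tmem173 lay at -0.29 to 1.12, with -0.03 without IRF3-2D replicate 2, -0.21 without Ctrl replicate 1 and -0.29 without Ctrl replicate 3. Surf4 turned to 0.01 with library totals alone.

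With library totals alone 4500 genes (41.7%) were called higher and 571 (5.29%) lower, and leaving out single libraries gave 851 to 1312 higher and 920 to 1363 lower. With library totals alone the genes called higher numbered 7 among regulators of RIG-I-like receptors, 8 for the cGAS and STING route, 8 for the endosomal receptors, 7 for scaffolds, 9 for other sensors and 6 for clearance, while those called lower numbered 0 in the first, the endosomal, the necroptosis and the clearance lists. DESeq2 gave 3 called lower among regulators of RIG-I-like receptors, 3 higher for the endosomal receptors and 2 higher for necroptosis. A mean count of at least 50 gave 2 lower in the first list. RLE factors and no filter gave 2 higher for necroptosis, and no filter gave 0 lower for clearance. Leaving out single libraries gave 1 to 2 lower in the first list, 2 to 3 higher for the cGAS and STING route, 1 to 4 higher for the endosomal receptors, 1 to 2 higher for necroptosis, 2 to 5 higher for other sensors, and 3 to 5 higher and 0 to 1 lower for clearance. The causes were not tested.

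The replicate block gave 1038 genes higher and 1128 lower, 2 higher for the cGAS and STING route, 1 higher for necroptosis and 0 lower for clearance. Deviations of same-numbered libraries correlated at 0.079, -0.099 and 0.081, and those of the other pairs at -0.139 to 0.053. With 3 libraries per group, these values cannot decide whether same-numbered samples belong together. Members with few counts, such as Tmem173, are limited by depth.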

Other observations

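Some genes outside the sensor set swung widely between libraries of 1 group. Csf1r, the receptor of macrophage growth factors, had 388, 10 and 0 counts in IRF3-2D libraries and 10, 107 and 234 in Ctrl libraries, while the summed Kupffer cell and macrophage markers did not swing alike. Dnase2a, which encodes a lysosomal nuclease, had 3, 0 and 1 counts in IRF3-2D libraries and 0, 31 and 7 in Ctrl libraries. Rnaset2b had 5321, 4468 and 4438 counts in IRF3-2D libraries and 15, 0 and 248 in Ctrl libraries, less even than its sum with Rnaset2a. The cause of these swings was not tested.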
